A study of Mus musculus with 48 samples.

Results

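Cbx2, Cbx6, Cbx7 and Cbx8 encode chromobox proteins of the Polycomb repressive complexes, and their mRNA was followed in stretched and non-stretched C2C12 muscle cells. They are 4 of the 47480 gene symbols in each count table, and they were chosen by their log2 fold changes in stretched against non-stretched cells, so every stretch difference of these 4 genes is given as a description, without a test. C2C12 is an established mouse myoblast line that fuses into multinucleated cells when it differentiates. RNA was sequenced from 48 libraries in 12 groups of 4. The groups were myoblasts (undifferentiated cells) and differentiated cells (labelled myotubes), either stretched or left at rest on the same kind of flexible plate, and collected after 1, 3 or 6 h with controls of their own at each time. The cells carried no transgene or drug. In each stage, 2 experiments mostly gave 2 libraries each to a group (B27 with replicates 7 and 8 and B31 with replicates 9 and 10 in myoblasts, B25 and B28 likewise in differentiated cells), so the 4 libraries of a group are not 4 independent experiments and p-values measure only the spread between these libraries. The stretched differentiated group at 1 h held replicates 4, 7, 8 and 9, and replicate 4 was the only library of a further experiment, B17. The B codes of the titles are read here as experiments. The study's methods divide the differentiated samples over more experiments than these codes do in every group but that one.

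Polycomb repressive complex 2 (PRC2) methylates lysine 27 of histone H3, and the chromodomain of a Polycomb Cbx protein binds that mark as a subunit of canonical Polycomb repressive complex 1 (PRC1), which compacts chromatin and ubiquitinates histone H2A. The Cbx subunits replace each other within the complex: Cbx7 is best known from stem cells and from repression of the Ink4a/Arf locus, Cbx2 for compaction of chromatin and for gonad development, Cbx8 for complexes in differentiating and in cancer cells, and Cbx6 is less well studied. The related proteins Cbx1, Cbx3 and Cbx5 (HP1 beta, gamma and alpha) bind methylated lysine 9 of histone H3 instead and belong to heterochromatin.

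Library totals lay between 48447318 and 77080730 counts, and the 4 genes were well above the detection limit in all of them. The lowest count of any of them was 300 (Cbx8 in a differentiated library) and the highest 14597 (Cbx6 in a myoblast library). As a check of the labels, the 7 muscle differentiation markers had between 0 and 394 counts in any myoblast library and at least 12439 in any differentiated one. Of the 6 markers of other cell types, Adipoq, Pecam1, Ptprc, Adgre1 and Epcam had at most 9 counts in any library, and Cdh1 had 75 to 165 in myoblasts and 481 to 1321 in differentiated cells. In each of the 6 stretch comparisons, the median log2 fold change of all genes tested lay between -0.01 and 0.00, as TMM scaling sets it, so a change shared by most genes could not be seen. In these bulk samples, fewer cells that express a gene and less RNA per cell cannot be told apart.

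The 4 genes lie in 2 pairs. Cbx2 (chr11:119022962-119031270, plus strand, mm10) and Cbx8 (chr11:119036305-119040969, minus strand) are neighbours whose 3′ ends face each other 5.0 kb apart. Cbx6 (chr15:79823896-79834688, minus strand) and Cbx7 (chr15:79915807-79971119, minus strand) are 81.1 kb apart on the same strand of chromosome 15. None of the 31-base stretches in the transcripts of Cbx2, Cbx7 or Cbx8 occurs in an annotated transcript of another gene. Transcripts were compared in their own direction only, so overlap with a gene on the opposite strand was not counted. For Cbx6 the share was 5.94%, and 1.0% without Npcd, an annotated gene that overlaps it.

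Over the 6 comparisons, the stretched libraries lay on one side of all the non-stretched ones for a member in 13 of 24 cases, 9 lower and 4 higher. Of all genes tested in the same 6 comparisons, 11.2% lay lower and 10.9% higher in this way. The members were chosen by these contrasts, so their count is a description. No member passed the log2 limit of 0.58 in any comparison, and the percent changes lay between -26.6% and 29.7%. Read by time, Cbx2 and Cbx8 were lower at 1 h in both stages, Cbx6 was lower at 3 h in both stages, and Cbx8 was higher at 6 h in both stages.

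**Figure D1:**
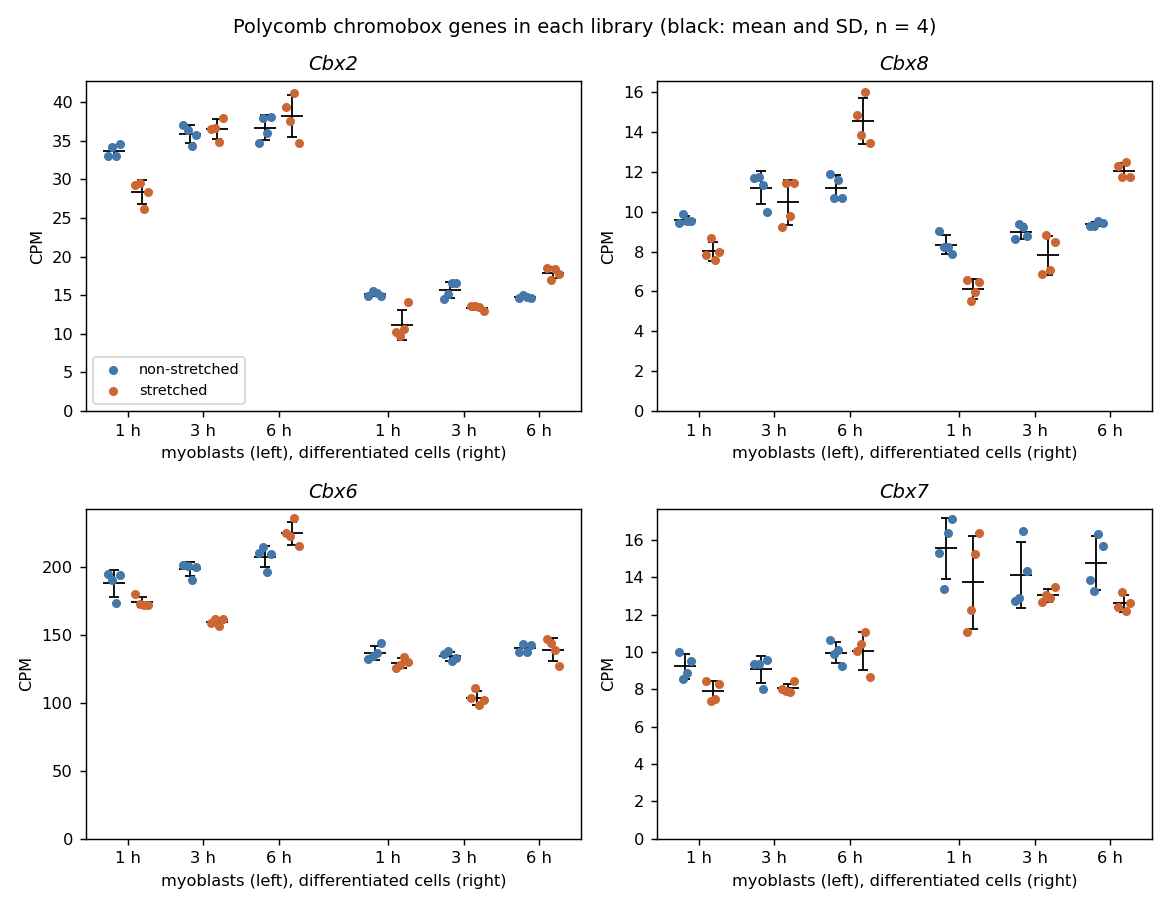
CPM of Cbx2, Cbx8, Cbx6 and Cbx7 (vertical axes, from 0) in each of the 48 libraries by stage and time, blue for non-stretched and orange for stretched, with black bars for the mean and SD of 4 libraries. Cbx8 lies at 7.59 to 8.70 CPM in stretched myoblasts at 1 h and at 13.5 to 16.03 CPM at 6 h, and Cbx6 lies at 157 to 162 CPM in stretched myoblasts at 3 h.

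Cbx8 was the member with the widest swing. In myoblasts at 1 h it had 9.42, 9.87, 9.51 and 9.55 CPM (counts divided by the TMM-scaled library size) in the non-stretched replicates 7, 8, 9 and 10, and 7.84, 8.70, 7.59 and 7.96 CPM in the stretched ones. The groups did not overlap, and the log2 fold change was -0.26 (SE 0.056). At this time 3 of the 4 members had all stretched libraries below all non-stretched ones, and so had 8.01% of the 14938 genes tested, while 1.25% of those passed both limits (an adjusted p under 0.05 and a log2 difference of 0.58 or more, up or down). In differentiated cells at 1 h the non-stretched replicates 7, 8, 9 and 10 had 9.06, 8.25, 8.24 and 7.87 CPM and the stretched replicates 4, 7, 8 and 9 had 6.57, 5.51, 5.95 and 6.49 CPM. Here too the groups were apart, with a log2 fold change of -0.45 (SE 0.080), against 3.9% of 15538 genes apart in that direction and 0.27% called.

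The 3 h values of Cbx8 overlapped in both stages. In myoblasts the non-stretched libraries lay at 11.7, 11.8, 11.4 and 9.98 CPM and the stretched ones at 9.22, 11.4, 9.79 and 11.4 CPM, a log2 fold change of -0.10 (SE 0.077) that ran from -0.15 without non-stretched replicate 10 to -0.04 without stretched replicate 7. In differentiated cells they lay at 8.61, 9.38, 9.25 and 8.76 CPM without and at 6.89, 8.86, 7.09 and 8.47 CPM with stretching, a log2 fold change of -0.20 (SE 0.084). The stretched libraries were split within the experiments, replicates 8 and 10 being above replicates 7 and 9 in both stages.

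At 6 h the order of the groups was the opposite of that at 1 h. Non-stretched myoblasts had 11.9, 10.7, 11.6 and 10.7 CPM of Cbx8, and stretched myoblasts 14.8, 13.9, 16.03 and 13.5 CPM. Each stretched library was above each non-stretched one, and the log2 fold change was 0.38 (SE 0.063), or 29.7%. At 6 h 2 of the 4 members were apart in this direction, beside 15% of 14938 genes, and 2.17% of the genes were called. In differentiated cells the values were 9.28, 9.30, 9.52 and 9.42 CPM without stretching and 12.3, 11.8, 12.5 and 11.7 CPM with it. These groups were far apart relative to their SD of 0.113 and 0.378 CPM, with a log2 fold change of 0.36 (SE 0.046), beside 13.8% of 15433 genes apart in that direction and 2.04% called. In a model of all libraries of a stage, the stretch effect moved from 1 h to 6 h by 0.63 (SE 0.099) in myoblasts and by 0.81 (SE 0.1001) in differentiated cells on the log2 scale.

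Cbx2, the neighbour of Cbx8, was lower at 1 h as well. In myoblasts the non-stretched libraries had 33.0, 34.2, 33.0 and 34.6 CPM and the stretched ones 29.3, 29.5, 26.2 and 28.4 CPM. The groups were apart, with a log2 fold change of -0.25 (SE 0.042). In differentiated cells the non-stretched libraries had 14.9, 15.5, 15.3 and 14.9 CPM, and the stretched replicates 4, 7, 8 and 9 had 10.3, 9.73, 10.6 and 14.1 CPM. Replicate 9 lay close to the non-stretched libraries and the other 3 well below them. The log2 fold change was -0.44 (SE 0.105), and -0.57 without replicate 9.

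At later times Cbx2 differed between the stages in where its groups lay. In myoblasts at 3 h it had 37.0, 36.4, 34.4 and 35.7 CPM without and 36.6, 36.6, 34.9 and 38.0 CPM with stretching, and at 6 h 34.7, 37.9, 36.0 and 38.1 against 39.4, 37.6, 41.1 and 34.8 CPM. The groups overlapped at both times, with log2 fold changes of 0.02 (SE 0.034) and 0.06 (SE 0.051). The value at 3 h ran from 0.0026 without stretched replicate 10 to 0.046 without stretched replicate 9, and that at 6 h from 0.02 without stretched replicate 9 to 0.11 without stretched replicate 10. In differentiated cells at 3 h the non-stretched libraries had 14.5, 15.1, 16.5 and 16.6 CPM and the stretched ones 13.6, 13.6, 13.4 and 12.9 CPM. All stretched libraries were lower (log2 fold change -0.23, SE 0.052), as in 13.4% of the 15513 genes tested, of which 1.63% were called. At 6 h the differentiated cells had 14.7, 15.0, 14.8 and 14.7 CPM without and 18.5, 16.96, 18.5 and 17.8 CPM with stretching. All stretched libraries were higher (0.28, SE 0.042). The stretch effect of Cbx2 moved between 1 h and 6 h in the model of a whole stage by 0.31 (SE 0.064) in myoblasts and by 0.71 (SE 0.106) in differentiated cells, and whether these 2 shifts differ was not tested.

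**Figure D2:**
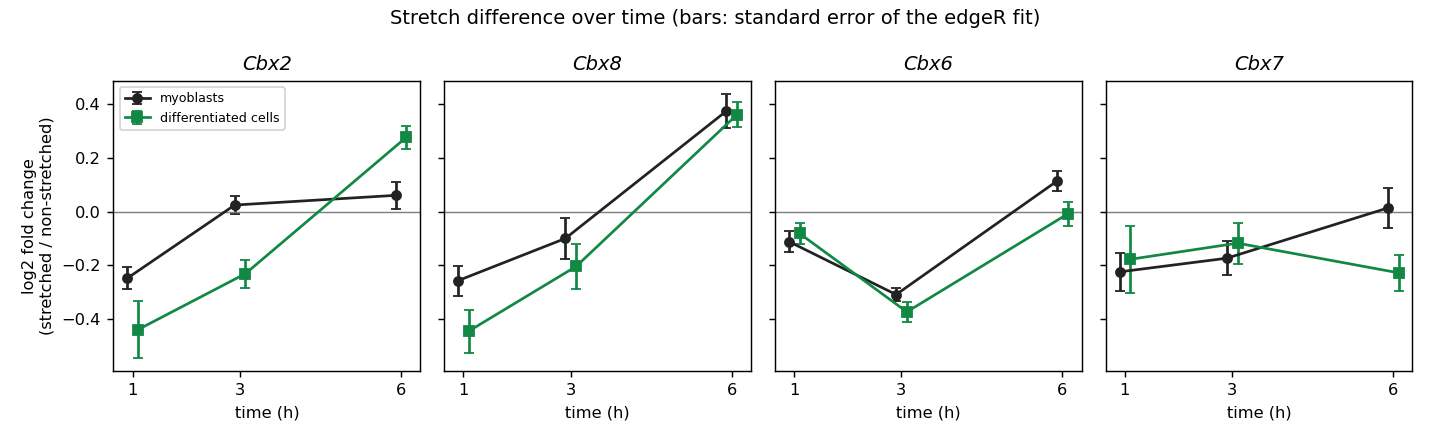
Log2 fold change of stretched over non-stretched cells (vertical axis) after each of the 3 stretching times for the 4 members, black circles for myoblasts and green squares for differentiated cells, with bars for the standard error of the edgeR fit. Cbx8 runs from -0.26 to 0.38 and from -0.45 to 0.36, and Cbx6 has its lowest value at 3 h in both stages.

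Cbx6, the most abundant member, had its largest difference at 3 h. In myoblasts the non-stretched libraries had 202, 201, 191 and 200.5 CPM and the stretched ones 159, 162, 157 and 162 CPM. The gap between the groups was wide beside an SD of 5.16 and 2.48 CPM, and the log2 fold change was -0.31 (SE 0.025), or -19.3%. Of all 14813 genes tested, 15.4% were apart in that direction and 1.71% were called, and Cbx6 was the single member apart. In differentiated cells the values were 136, 138, 131 and 133 CPM without stretching and 104, 111, 98.8 and 102 CPM with it. Again no library of one group reached the other, and the log2 fold change was -0.37 (SE 0.037), or -22.9%.

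Before and after 3 h the groups of Cbx6 lay close together. At 1 h the myoblasts had 195, 191, 174 and 194 CPM without and 180.05, 173, 172 and 172 CPM with stretching, and the non-stretched replicate 9 lay below the highest stretched library and above the other 3. The differentiated cells at 1 h had 133, 135, 137 and 144 CPM without and, in replicates 4, 7, 8 and 9, 126, 128, 134 and 130.4 CPM with stretching. The log2 fold changes were -0.11 (SE 0.040) and -0.08 (SE 0.041), with overlap in both stages. At 6 h the stretched myoblasts, at 225, 223, 236 and 215.5 CPM, were all above the non-stretched ones at 210.5, 215.2, 197 and 209.7 CPM, though replicate 10 exceeded the highest of these narrowly. The differentiated cells at 6 h had 137.5, 144, 137.3 and 143 CPM without and 147, 144, 139 and 127 CPM with stretching, and overlapped. The log2 fold changes at 6 h were 0.11 (SE 0.037) and -0.01 (SE 0.045), and in the model of a whole stage the effect moved between 3 h and 6 h by 0.43 (SE 0.050) in myoblasts and by 0.37 (SE 0.059) in differentiated cells.

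Cbx7 had small differences that left most of its groups overlapping. In myoblasts at 1 h it had 9.99, 8.53, 8.86 and 9.54 CPM without and 8.45, 7.38, 7.50 and 8.28 CPM with stretching, which left the groups apart by a small gap (log2 fold change -0.23, SE 0.070). At 3 h it had 9.34, 9.38, 7.99 and 9.59 against 8.02, 7.91, 7.88 and 8.42 CPM (-0.17, SE 0.063), and at 6 h 10.6, 9.89, 10.1 and 9.25 against 10.1, 10.4, 11.1 and 8.68 CPM (0.01, SE 0.075). Those groups overlapped at both times. In differentiated cells it had 15.3, 13.4, 16.4 and 17.1 CPM without and 11.1, 12.2, 15.2 and 16.3 CPM with stretching at 1 h (replicates 4, 7, 8 and 9 when stretched), and 12.7, 12.9, 16.5 and 14.4 against 12.7, 13.0, 12.9 and 13.5 CPM at 3 h. Both overlapped, with log2 fold changes of -0.18 (SE 0.125) and -0.12 (SE 0.076). The value at 1 h ran from -0.27 without stretched replicate 9 to -0.09 without stretched replicate 4, and that at 3 h from -0.16 without non-stretched replicate 7 to -0.04 without non-stretched replicate 9. At 6 h it had 13.8, 13.3, 16.3 and 15.7 against 12.4, 13.2, 12.2 and 12.6 CPM, apart by a narrow margin (-0.23, SE 0.068), where 12.3% of all genes were apart in that direction.

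The differences were also computed within each experiment, as the mean log2 CPM of its stretched libraries less that of its non-stretched ones. Cbx8 at 6 h stood at 0.35 and 0.40 in experiments B27 and B31 and at 0.37 and 0.35 in B25 and B28. Cbx6 at 3 h stood at -0.33, -0.29, -0.36 and -0.39 in the same order. These values were even across the experiments. Cbx2 and Cbx8 in differentiated cells at 1 h were not, with -0.58 and -0.59 in B25 against -0.11 and -0.31 in B28, which had a single stretched library there. In myoblasts at 1 h, Cbx2 stood at -0.19 in B27 and -0.31 in B31, and Cbx8 at -0.22 and -0.29. At 3 h Cbx8 in myoblasts was uneven, at -0.19 in B27 and -0.0093 in B31. Cbx7 in differentiated cells at 6 h was at -0.08 in B25 and -0.37 in B28. At 3 h it was at 0.0059 in B25 and -0.22 in B28, so its sign differed between the experiments. At 1 h Cbx7 was at -0.07 and -0.03, while the low B17 library has no non-stretched partner.

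**Figure D3:**
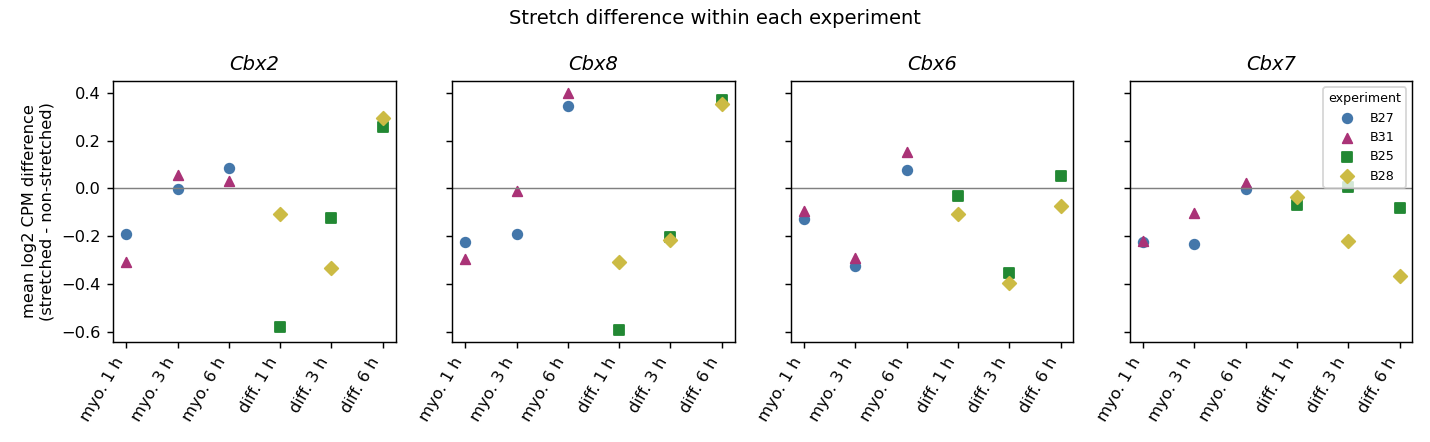
Mean log2 CPM of stretched less non-stretched libraries (vertical axis) within each experiment, for each member in the 6 comparisons (myo., myoblasts; diff., differentiated cells). The 2 experiments of a stage lie together for Cbx8 at 6 h and Cbx6 at 3 h and lie apart for Cbx2 in differentiated cells at 1 h (-0.58 and -0.11).

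The stages were compared in the 24 non-stretched libraries. The choice of the genes did not use this contrast, but it used these libraries as controls. The members' values are therefore given as a description. Stage and experiment cannot be told apart, because no experiment held both stages. Differentiated cells had less Cbx2 and Cbx6 and more Cbx7 than myoblasts. Cbx2 stood at 35.6 ± 1.64 CPM in myoblasts (SD, n = 12) and at 15.5 ± 0.715 CPM in differentiated cells (SD, n = 12), with the highest differentiated library at 16.99 CPM and the lowest myoblast library at 33.3 CPM. The log2 difference was -1.20 (SE 0.025). Cbx6 went from 199 ± 10.1 to 140 ± 4.52 CPM (-0.51, SE 0.021), and its groups were also apart, at 176 to 213 and 134 to 147 CPM. Cbx7 was higher in differentiated cells, at 15.1 ± 1.56 CPM (13.0 to 17.2) against 9.46 ± 0.698 CPM (7.97 to 10.6), a log2 difference of 0.67 (SE 0.050). Cbx8 differed least, from 10.7 ± 0.940 CPM (9.50 to 11.9) to 9.07 ± 0.609 CPM (7.92 to 9.73), and its groups overlapped (-0.24, SE 0.031). All 4 passed the adjusted p limit, but so did 45% of the 16582 genes upward and 44.4% downward. Cbx2 and Cbx7 also passed the fold limit, with 24.9% of genes lower and 27.1% higher under both limits.

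Levels can be set side by side between genes only per length, so the CPM of the non-stretched libraries was divided by the length of the longest coding transcript. In myoblasts Cbx6 was at 34.3 ± 1.75 CPM per kb and Cbx2 at 9.34 ± 0.431 (SD, n = 12). Cbx8 at 2.99 ± 0.263 and Cbx7 at 2.79 ± 0.206 CPM per kb followed, within each other's SD. In differentiated cells the order was Cbx6 (24.1 ± 0.778), Cbx7 (4.45 ± 0.462), Cbx2 (4.07 ± 0.188) and Cbx8 (2.53 ± 0.170 CPM per kb), and Cbx7 lay above Cbx2 by more than the SD of Cbx2 and less than its own. The lowest HP1 gene, Cbx1, was at 46.9 and 38.5 CPM per kb, above Cbx6 in both stages.

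**Figure D4:**
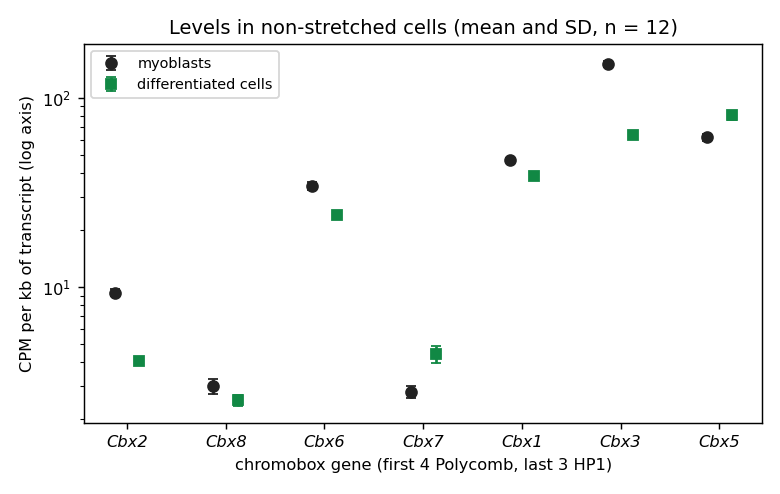
Level of the chromobox genes in non-stretched cells as CPM per kb of the longest coding transcript (vertical log axis), mean and SD of 12 libraries, black circles for myoblasts and green squares for differentiated cells. Cbx6 (34.3 and 24.1) is the highest of the 4 members, and Cbx7 is above Cbx8 in differentiated cells alone.

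The values of the members over time in non-stretched cells are a description, because the same control libraries entered the stretch contrasts that chose the members. Cbx8 in myoblasts stood at 9.76 ± 0.206 CPM at 1 h, 11.4 ± 0.839 CPM at 3 h and 11.3 ± 0.604 CPM at 6 h (SD, n = 4 each). Its log2 differences from 1 h were 0.22 (SE 0.058) and 0.21 (SE 0.057). In differentiated cells Cbx8 was 0.19 higher at 6 h than at 1 h (SE 0.051). In both stages its lowest non-stretched mean of the 3 times was that at 1 h. Of all 15213 genes tested in myoblasts, 1.94% were higher and 0.585% lower by adjusted p at 3 h, and 0.999% and 0.986% at 6 h. In differentiated cells 0.411% of 15813 genes were higher and 0.809% lower at 6 h.

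The differences between the experiments of a stage are also a description, because the same libraries entered the contrasts that chose the members. In non-stretched differentiated cells Cbx7 stood at 16.2 ± 0.890 CPM in B28 and 13.7 ± 0.870 CPM in B25 (SD, n = 6 each). The log2 difference was 0.24 (SE 0.042). Of all genes tested there, 9.02% were higher and 9.04% lower in B28 by adjusted p. The same difference of Cbx7 in the stretched libraries was 0.06. In myoblasts Cbx6 was at -0.06 (SE 0.027) in B31 against B27. Of all genes tested in myoblasts, 1.87% were higher and 2.59% lower in B31 by adjusted p. In non-stretched libraries Cbx2, Cbx6 and Cbx8 differed between the experiments of a stage by at most 0.06 in either direction. In stretched differentiated cells Cbx2 was 0.11 higher in B28 (SE 0.071) and Cbx6 was at -0.084 (SE 0.034).

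The HP1 genes were tested with stretching as well. Cbx1 was lower by adjusted p in myoblasts at 1 h (-0.17, SE 0.033) and 3 h (-0.22, SE 0.029) and in differentiated cells at 3 h (-0.16, SE 0.037). Cbx5 was lower in myoblasts at 1 h (-0.15, SE 0.034) and 3 h (-0.18, SE 0.025), and Cbx3 passed the adjusted p limit in no comparison. None of these passed the fold limit.

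Of the 46 other genes listed around Polycomb (the HP1 genes, subunits of PRC1 and PRC2, erasers of their marks and cell cycle inhibitors they repress), 42 were tested in each comparison. By edgeR 0 of 42 passed both limits in all 6 comparisons, and DESeq2 also called 0. By adjusted p alone, 0 were higher and 5 lower in myoblasts at 1 h, 13 and 10 at 3 h, and 4 and 11 at 6 h. In differentiated cells these counts were 0 and 0 at 1 h, 9 and 5 at 3 h, and 4 and 4 at 6 h. At an unadjusted p under 0.05 there were 14, 26 and 20 genes in myoblasts and 7, 21 and 16 in differentiated cells. The share of all genes past the adjusted p limit was 1.67% higher and 4.24% lower in myoblasts at 1 h, 16% and 15.8% at 3 h, and 14.1% and 13% at 6 h, and in differentiated cells 0.193% and 0.47%, 10.8% and 11.4%, and 11.5% and 10.8%. The median log2 fold change of the 42 genes lay between -0.01 and 0.04.

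The most abundant gene of each list serves as an example. Phc2, a polyhomeotic subunit of canonical PRC1, had log2 fold changes of 0.16 in myoblasts (SE 0.025, edgeR adjusted p = 3.3e-04) and, in differentiated cells, 0.11 (SE 0.030, edgeR adjusted p = 0.0209) at 3 h, when Cbx6 was lower. Pcgf3, of variant PRC1, was at -0.12 (SE 0.022) at 3 h and 0.13 (SE 0.030) at 6 h in myoblasts, both past the adjusted p limit. Rbbp4, the histone-binding PRC2 subunit, was at 0.12 (SE 0.029, edgeR adjusted p = 0.00791) in myoblasts at 3 h. Of the 11 PRC2 subunits tested there, 3 were higher and 3 lower by adjusted p, and the lowest was Ezh1, an H3K27 methyltransferase named after its values were seen, at -0.45 (SE 0.035, edgeR adjusted p = 3.1e-06). At that time its value in the differentiated cells was -0.43 (SE 0.032, edgeR adjusted p = 4.8e-05). Asxl1, a partner of the H2A deubiquitinase Bap1, was at 0.22 (SE 0.044) at 3 h and -0.23 (SE 0.040) at 6 h in myoblasts, past the limit both times. The differentiated cells had Asxl1 at 0.03 (SE 0.037, edgeR adjusted p = 0.654) at 3 h and 0.04 (SE 0.044, edgeR adjusted p = 0.566) at 6 h. There Pcgf3 was at -0.08 and 0.07 at these times and Rbbp4 at 0.05 and 0.07, and none of the 4 values passed. Cdkn1a, the cell cycle inhibitor p21, lay between -0.08 and 0.10 in the 6 comparisons and passed in none. Of the 3 inhibitors tested, 2 were lower by adjusted p in myoblasts at 6 h, beside 13% of all genes. These, named after their values were seen, were Cdkn2c (-0.14, SE 0.036, edgeR adjusted p = 0.0144) and Cdkn1c (-0.42, SE 0.110, edgeR adjusted p = 0.0149). Cdkn1c was low there, at 1.95 against 1.45 CPM. No inhibitor passed that limit in the other comparisons.

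The Hox genes are the classic targets of Polycomb repression. Of 39 listed, 21 were tested in myoblasts and 22 in differentiated cells. Hoxa3 was called lower at 1 h in myoblasts (log2 fold change -0.95, SE 0.128, edgeR adjusted p = 0.00134) and in differentiated cells (-0.88, SE 0.146, edgeR adjusted p = 0.0303). Hoxa9 was called lower in differentiated cells at 1 h (-0.64, SE 0.106, edgeR adjusted p = 0.0303) and Hoxa13 at 3 h (-0.65, SE 0.137, edgeR adjusted p = 0.00727). Hoxa3 was low at 1 h, at 2.81 against 1.45 CPM in myoblasts and 3.35 against 1.82 CPM in differentiated cells. Hoxa13 was low too, at 1.75 CPM over the non-stretched differentiated libraries, while Hoxa9 went from 20.1 to 12.9 CPM. Of all genes tested, 1.25% were called in either direction in myoblasts at 1 h, and 0.27% and 1.63% in differentiated cells at 1 h and 3 h. By adjusted p alone, 0 Hox genes were higher and 3 lower in myoblasts at 1 h, 1 and 4 at 3 h, and 4 and 1 at 6 h, and in differentiated cells 0 and 2, 0 and 10, and 1 and 0. The 10 of 22 at 3 h, with a median of -0.26 over the list, stand beside 11.4% of all genes lower. No Hox gene passed both limits upward, and Hoxc10, the most abundant, was at -0.17 (SE 0.038) and -0.22 (SE 0.041) at 3 h.

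Among the stretch markers, Egr1, Fos, Cyr61 and Ctgf were tested, and at 1 h 4 were called higher in myoblasts and 2 in differentiated cells. In differentiated cells all 4 had every stretched library above the non-stretched ones and an unadjusted p under 0.05, with log2 fold changes of 1.33 to 2.76, but the stretched libraries were spread widely (Fos 40.1 ± 32.04 and Ctgf 425 ± 370 CPM, SD, n = 4). Later the direction was mixed. Egr1 was called lower in myoblasts at 3 h (-0.63, SE 0.052, edgeR adjusted p = 4.7e-06), and Ctgf was called higher in differentiated cells at 3 h (1.01, SE 0.222, edgeR adjusted p = 0.00889). At 6 h, when Cbx8 was higher, 3 of 4 were lower by adjusted p in myoblasts and 2 of 4 in differentiated cells. The muscle differentiation markers had a median log2 fold change between -0.11 and -0.02 in the 3 differentiated comparisons and 0 of 7 were called by edgeR there, with 0, 0 and 2 at an unadjusted p under 0.05. In myoblasts these markers were low, at no more than 394 counts in a library. At 1 h, when Cbx2, Cbx7 and Cbx8 were lower, the median of the 6 tested was -0.63 and 3 had an unadjusted p under 0.05, with 0 passing by adjusted p (Myog -1.25, SE 0.331, edgeR adjusted p = 0.0501). At 3 h Myog was called lower, at 2.39 against 1.35 CPM (-0.82, SE 0.234, edgeR adjusted p = 0.0167), when Cbx6 was lower. At 6 h, when Cbx8 and Cbx6 were higher, Myog was also lower by adjusted p (-0.54, SE 0.171, edgeR adjusted p = 0.0356). Of the 5 myoblast and proliferation markers, Top2a was lower by adjusted p in myoblasts at 3 h (-0.09, SE 0.029, edgeR adjusted p = 0.0356) and higher in differentiated cells (0.12, SE 0.039, edgeR adjusted p = 0.0434), when Cbx6 was lower in both. These markers went both ways at 6 h, when Cbx8 was higher, with a median of -0.13 for myoblasts and of -0.09 for differentiated cells. Myoblasts had 1 that was higher by adjusted p, Myf5 (0.40, SE 0.062, edgeR adjusted p = 0.00108), and 2 that were lower, Pax7 (-0.23, SE 0.048, edgeR adjusted p = 0.00587) and Top2a (-0.13, SE 0.041, edgeR adjusted p = 0.0344). In differentiated cells Myf5 was higher (0.51, SE 0.059, edgeR adjusted p = 5.6e-04) and none was lower by adjusted p, with Pax7 at -0.17 (SE 0.057, edgeR adjusted p = 0.0608). Cdh1 was lower in differentiated cells at 6 h by adjusted p (-0.33), when Cbx8 and Cbx2 were higher. The part of these markers in the members' values was not tested.

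Between the stages, 2 of 11 PRC2 subunits tested were higher and 5 lower in differentiated cells under both limits, and 1 and 2 of 8 canonical PRC1 subunits, beside 27.1% of all genes higher and 24.9% lower. The PRC2 methyltransferases had the largest differences of that list in each direction: Ezh2 went from 104 ± 4.24 to 31.01 ± 2.30 CPM (-1.75, SE 0.027) and Ezh1 from 22.8 ± 1.54 to 83.1 ± 2.90 CPM (1.86, SE 0.029), both named here after their values were seen. Against that, Cbx2 lost 1.20 and Cbx7 gained 0.67 on the same log2 scale. The 5 myoblast and proliferation markers went both ways. Mki67 went from 589 to 112 CPM (-2.40, SE 0.082) and Top2a from 594 to 112 CPM (-2.43, SE 0.079), and Myf5 was at -1.08 (SE 0.043). Pax7 (0.23, SE 0.027) and Myod1 (0.65, SE 0.036) were higher in differentiated cells. The part of proliferation in the members' stage differences was not tested.

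Genes whose log2 CPM, centred within each stage, ran most like a member's over the 48 libraries were ranked by Pearson's r among 9761 genes. For Cbx8 these were Slx4 (r = 0.936), a scaffold of DNA repair nucleases, Zscan20 (0.926) and Klhl42 (0.923). For Cbx2 they were Six4 (0.880), a homeobox factor of muscle development, Traf2 (0.875) and Map3k1 (0.875), both of kinase signalling. Cbx8 came 14th for Cbx2 (r = 0.847) and Cbx2 came 74th for Cbx8. For Cbx6 they were Tor4a (0.939), Pddc1 (0.924) and Lrsam1 (0.921). Cbx7 had the weakest likenesses, with Slc4a3 (0.825), Pisd-ps1 (0.811) and Zfp219 (0.797). The libraries share groups, experiments and depth, so these r values describe the libraries only. Beside Cbx2, Six4 had the larger difference at 1 h, with log2 fold changes of -0.58 (SE 0.053) in myoblasts and -0.72 (SE 0.101) in differentiated cells, and at 3 h Pddc1 stood at -0.55 (SE 0.070) and -0.59 (SE 0.087), beyond Cbx6.

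**Figure D5:**
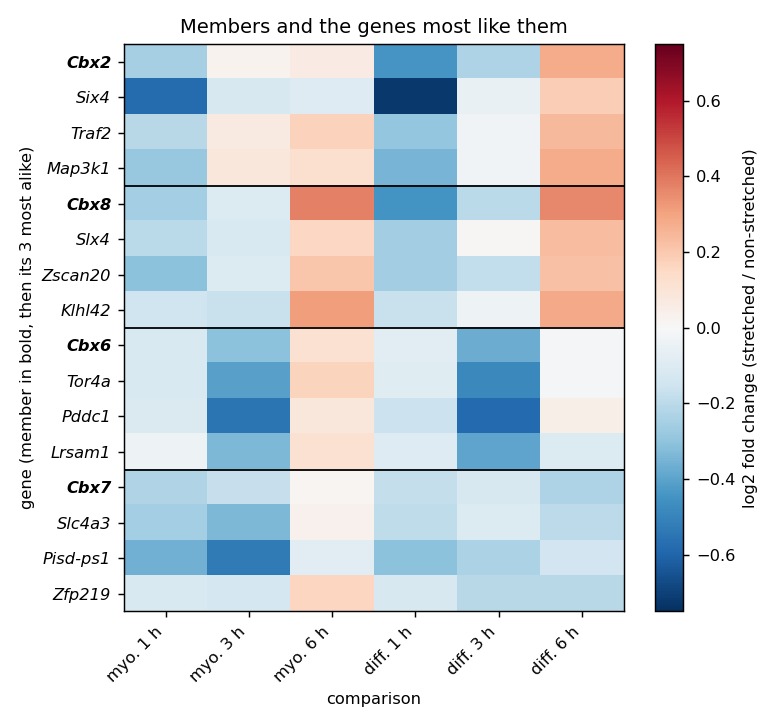
Log2 fold change with stretching (colour, blue lower and red higher) in the 6 comparisons for each member, in bold, and the 3 genes of highest r to it. The Cbx8 block is blue at 1 h and red at 6 h in both stages (Cbx8 -0.26 and 0.38 in myoblasts), and the Cbx6 block is darkest blue at 3 h.

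The neighbouring genes did not all share the members' values. Apobec3, a cytidine deaminase gene on the plus strand beside Cbx6 whose end overlaps that of Cbx7 (chr15:79891659-79915906), was lower at 3 h as Cbx6 was, with log2 fold changes of -0.28 (SE 0.030, edgeR adjusted p = 2.1e-05) in myoblasts and -0.46 (SE 0.068, edgeR adjusted p = 0.00124) in differentiated cells. Pdgfb, the growth factor gene on the other side of Cbx7, was instead higher in differentiated cells at 3 h (0.57, SE 0.158, edgeR adjusted p = 0.0257). Engase, the nearest tested gene below Cbx2 but distant from it (chr11:118476829-118489209), was lower in myoblasts at 3 h (-0.45, SE 0.114, edgeR adjusted p = 0.0093). It was low there, at 2.21 against 1.61 CPM, and Cbx2 was at 0.02. Gm26508, a noncoding gene beyond Cbx8, was at about 1 CPM and passed in no comparison. Npcd, which overlaps Cbx6 and shares 96.28% of its 31-base stretches with other genes, was lower by adjusted p in myoblasts at 3 h (-0.55, SE 0.198) at 2.33 against 1.60 CPM, a small level beside the 198 and 160 CPM of Cbx6.

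The promoter windows of Cbx8 and Cbx6, the members with the clearest courses, are shown for the short motifs they hold, the 250 bases before the start from RefSeq on GRCm38.p6, 5′ to 3′ on the minus strand. These RefSeq starts lie inside the gene spans given above. The windows of Cbx6 and Cbx7 (chr15:79932647-79932896) fall wholly within those spans, and that of Cbx8 in part. Capitals mark TGACGTCA (the cAMP response element), CACGTG (an E-box) and CCAAT, which reads ATTGG on the other strand, all chosen after the sequences were seen.
Cbx8 (chr11:119040914-119041163): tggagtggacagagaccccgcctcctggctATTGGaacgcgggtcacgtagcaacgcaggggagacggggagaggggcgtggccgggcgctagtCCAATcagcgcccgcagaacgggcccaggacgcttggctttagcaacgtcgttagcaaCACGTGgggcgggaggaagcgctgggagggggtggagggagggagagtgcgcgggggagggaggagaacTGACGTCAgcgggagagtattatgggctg
Cbx6 (chr15:79834334-79834583): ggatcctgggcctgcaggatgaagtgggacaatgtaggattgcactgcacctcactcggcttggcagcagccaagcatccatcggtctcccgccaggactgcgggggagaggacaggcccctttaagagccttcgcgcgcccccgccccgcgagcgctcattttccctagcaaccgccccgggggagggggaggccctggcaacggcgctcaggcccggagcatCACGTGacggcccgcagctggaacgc
Both strands were searched in 32851 windows of that length. The Cbx8 window holds TGACGTCA 29 to 22 bases before the start, which 1.55% of the windows hold, and CACGTG 98 to 93 bases before it (6.02% of the windows). It also holds CCAAT on each strand. CCAAT on either strand was in 33.8% of the windows, and the share with it on both was not counted. The Cbx6 window holds CACGTG 26 to 21 bases before the start and no match to the others. The Cbx7 window holds a single CCAAT. The AP-1 letters TGANTCA, present in 6.75% of all windows, are in none of these 3. With 66.4%, 68.0% and 64.8% G and C, the windows of Cbx8, Cbx6 and Cbx7 were above the median of 52.4%. A match is a run of letters and says nothing of a bound factor. Cbx2 was not matched in the promoter table.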

How the data were processed

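The members and the gene lists were chosen with earlier results of these data known. The authors mapped read pairs to mm10 (STAR), estimated transcript levels (Salmon) and deposited whole-number counts per gene symbol, not normalized, in 1 table per stage. The labels give the molecule as nuclear RNA, whereas the methods describe mRNA libraries. All 48 columns were used. The experiment of replicate 9 in stretched myoblasts at 1 h is written differently in its title and in its column name, and the latter (B31) was followed.

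Low genes were taken out with filterByExpr and TMM factors set the scale. The 8 libraries of a stage and time were fitted with the quasi-likelihood method of edgeR 4.0.16 (R 4.3.3). Calls need a Benjamini-Hochberg adjusted p under 0.05 over all genes and 0.58 or more of log2 difference. The standard error is the size of the log2 fold change divided by the root of F. For log2 CPM the prior count was 1. Stage was fitted in non-stretched libraries with time as a covariate, and the experiment likewise within a stage. Scripts were tested on simulated data.

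Gene models and shared 31-base stretches came from GENCODE on mm10 (95.2% of symbols matched) and promoters from RefSeq. Named genes were the members, the HP1 genes, listed genes that were called or most abundant in their list, the nearest tested neighbours, and the 3 genes most like each member (mean of at least 5 CPM in each stage). Also named, outside this rule, were Ezh1, Ezh2, Pcgf1, Cdkn1c, Cdkn2c, Pax7, Myf5, Myod1, Mki67 and the markers of other cell types. Alternatives were DESeq2 1.42.0, RLE scaling, no low-count filter, a minimum of 10 counts per library, a joint model of a whole stage, the experiment as a covariate, a replicate block, leaving out each library, within-experiment values, no fold limit, and stretched libraries. Listed genes without a match in the tables or below the filter on low counts were not tested, and 1 further gene is not reported here. Splicing was not analysed here.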

Additional observations from a re-analysis of the deposited data

Results flagged for a closer look

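In 3 of the 48 groups of 4 libraries (4 members in 12 groups), 1 library stood far from the other 3, where chance gives about 1 in 20. Cbx6 was at 180.05 CPM in stretched replicate 7 of the myoblasts at 1 h, above the other 3, and at 190.8 CPM in non-stretched replicate 9 at 3 h, below the others. That same replicate had the low Cbx7 value of 7.99 CPM.

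For 3 members, every stretched library lay on one side of the controls at one time and on the other side at another time, and these differences between times were not tested. Here the fits of each time are subtracted, which gives slightly other values than a model of a whole stage. Between the values at 1 h and 6 h, the log2 fold change of Cbx8 moved by 0.63 in myoblasts and by 0.81 in differentiated cells, that of Cbx2 by 0.72 in differentiated cells, and that of Cbx6 by 0.23 in myoblasts. Between 3 h and 6 h it moved by 0.57 for Cbx8 and 0.51 for Cbx2 in differentiated cells, and by 0.42 for Cbx6 in myoblasts. The groups of Cbx6 in myoblasts at 1 h and of Cbx8 in differentiated cells at 3 h overlapped when all libraries were compared, since here each library was set against the mean of the controls.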

How the results depend on the processing

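The stage differences kept their direction and their side of the limit under RLE scaling, DESeq2 and the other settings run. Within experiments, the stretch differences moved by more than the spread for Cbx2 in differentiated cells at 1 h (-0.11 in B28) and 3 h (-0.13 in B25 and -0.33 in B28), Cbx6 at 1 h (-0.031 in B25), Cbx7 at 6 h (-0.081 in B25 and -0.37 in B28) and Cbx8 at 1 h (-0.59 in B25 and -0.31 in B28). Leaving out each library in turn gave -0.57 to -0.38 for Cbx2 and -0.48 to -0.40 for Cbx8 in differentiated cells at 1 h. Without the fold limit, 5, 23 and 15 other genes listed around Polycomb passed in myoblasts and 14 and 8 in differentiated cells at 3 h and 6 h, in place of 0.

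The time values share the controls that chose the members, so the following describes the fits and is no test of the members. With the experiment as a covariate and with DESeq2, time in non-stretched myoblasts passed the adjusted p limit, which it missed in the edgeR fit without a covariate, for Cbx6 at 6 h (0.12 and 0.13 on the log2 scale) and for Cbx8 at 3 h (0.22 and 0.22) and 6 h (0.21 and 0.21), and in differentiated cells for Cbx8 at 6 h (0.19 and 0.19). Leaving out single libraries gave Cbx8 0.20 to 0.27, 0.18 to 0.23 and 0.16 to 0.23 there. Replicate numbers were not taken to pair libraries, since the deviations of same-numbered libraries correlated between -0.04 and 0.15, over 0.1 in 6 of 23 pairs, and 8 of 23 correlated best with their own number. With a replicate block, Cbx6 at 6 h (0.12) and Cbx8 at 3 h (0.22) and 6 h (0.21) in myoblasts passed the limit. The cause of these changes was not tested.

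Signs turned for values near 0: Cbx6 between experiments in differentiated cells (-0.0013 by RLE, -0.0020 by DESeq2, -0.084 in stretched libraries), Cbx6 from 1 h to 3 h there (0.00024 by RLE, 0.00082 by DESeq2, -0.017 to 0.023 without single libraries), Cbx7 from 1 h to 3 h in myoblasts (-0.059 to 0.032 without single libraries), and Cbx8 between experiments in stretched libraries (0.037 and 0.0024). The Cbx7 difference between experiments fell to 0.061 in stretched libraries. Among the stretch differences near 0, Cbx6 in differentiated cells at 6 h ran from -0.035 to 0.032 and Cbx7 in myoblasts at 6 h from -0.037 to 0.080 without single libraries, and the former was 0.052 in B25 and -0.073 in B28. Cbx2 in myoblasts at 3 h was -0.0044 in B27 and 0.054 in B31. Farther from 0, Cbx7 in differentiated cells at 3 h (-0.12) was 0.0059 in B25 and -0.22 in B28. Depth limits each value, with 300 to 990 counts of Cbx8 per library and 400 to 1108 of Cbx7.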
